A study of Rattus norvegicus with 6 samples.

Results

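The 9 miRNAs described here are the 5p strands of the let-7 family and its close relative miR-98, as read in small RNA libraries of extracellular vesicles from rat bone marrow mesenchymal stromal cells (BMSCs). They were chosen by name from the raw count table (let-7a, b, c, d, e, f, g, i and miR-98), with earlier results of these data known. They are 9 of the 311 distinct mature sequences listed. Vesicles (exosomes) are membrane-bound particles that cells release, and BMSCs are plastic-adherent cells of the marrow with the capacity to become bone, cartilage or fat. Vesicles were taken from BMSCs kept at 1% oxygen (hypoxia, 3 libraries) or at 21% oxygen (normoxia, 3 libraries), both at 5% carbon dioxide. In both groups the cells came from the tibias and femurs of male SD rats aged 4 weeks and were cultured at 37 degrees with 10% serum. Nothing in the labels tells whether replicates are distinct animals or cultures. The p-values therefore reflect the spread among these 6 libraries alone, and that spread may be technical. Whether any counts came from vesicles of the culture serum was not tested.

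A let-7 precursor is a hairpin that the enzymes Drosha and Dicer cut into a 5p and a 3p strand. In this family the 5p strand is the guide, the one that Argonaute proteins hold to silence messenger RNAs. The guide pairs with its targets mainly through its seed, bases 2 to 8 from the 5′ end. The family is known for its part in differentiation: it rises as cells mature and represses growth genes such as HMGA2, RAS and MYC, and the RNA-binding protein LIN28, which in turn blocks let-7 maturation. In human endothelial cells let-7 members have been reported to respond to low oxygen.

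The mature sequences, as deposited, show what the 9 strands share and how little separates them, with the seed in capitals and the prefix rno for rat:
rno-let-7a-5p: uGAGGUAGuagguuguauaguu
rno-let-7b-5p: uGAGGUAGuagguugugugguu
rno-let-7c-5p: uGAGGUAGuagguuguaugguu
rno-let-7d-5p: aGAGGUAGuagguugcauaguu
rno-let-7e-5p: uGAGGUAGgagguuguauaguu
rno-let-7f-5p: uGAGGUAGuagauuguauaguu
rno-let-7g-5p: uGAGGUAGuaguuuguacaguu
rno-let-7i-5p: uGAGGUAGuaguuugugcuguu
rno-miR-98-5p: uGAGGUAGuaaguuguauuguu

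All 9 strands have 22 bases and share 1 seed, and all 9 match the mature sequence of the same name in RefSeq (build GRCr8). No other listed sequence, annotated or not, had this seed. The strands vary at 8 positions, counted from the 5′ end, of which position 1 is the only one before the seed and the others run from position 9 to position 19. Against let-7a-5p, the change is A19G in let-7c, A17G and A19G in let-7b, U9G in let-7e and G12A in let-7f. It is U1A and U16C in let-7d, and G11A and A19U in miR-98. let-7g and let-7i share G12U and U18C, and let-7i also has A17G and A19U. Of the 36 pairs, 4 are 1 base apart (let-7a with let-7c, let-7e or let-7f, and let-7b with let-7c), while let-7d and let-7i are 6 apart. A sequencing error, or a rule for reads that match several members, can therefore move counts between neighbours. How the authors assigned such reads is not given in the sources used here, so the level of any single member is less certain than the sum.

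The 9 strands come from 12 precursors in the count table, since let-7a, let-7c and let-7f each have 2. Both rows of such a strand held the same counts, so the rows do not show which locus a strand came from, and each strand was counted once. In the rat gene table of GRCr8, let-7a-1, let-7f-1 and let-7d lie beside each other, as do let-7c-2 with let-7b, and let-7f-2 with miR-98 inside the gene Huwe1. The let-7e precursor neighbours miR-99b and miR-125a, let-7c-1 neighbours miR-99a, and let-7a-2 neighbours miR-100. let-7g, which overlaps the genes Wdr82 and Rpl29, and let-7i have no miRNA neighbour within 10000 bases. The letters GGAG, the core of the site that LIN28 binds in let-7 precursors, were searched in the hairpin's own strand between the 5p and 3p arms. They occurred in 8 of the 10 family hairpins whose arms are both in the RefSeq table (80.0%), and in 16 of 253 other rat hairpins (6.32%). The family's stretch between the arms is also longer, with a median of 30.5 bases against 16.0. let-7c-2 and miR-98 were the 2 without these letters.

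In every library the family held more counts than miR-21-5p, the most abundant single miRNA. It took 33.0, 43.0 and 39.6% of all counts in hypoxia replicates 1 to 3, against 40.1, 48.7 and 36.3% in normoxia replicates 1 to 3. The lowest library was hypoxia replicate 1 and the highest normoxia replicate 2, and the groups overlapped. Counting error was small beside this spread: the 95% exact binomial interval was 32.7 to 33.2% in hypoxia replicate 1 and 48.5 to 49.0% in normoxia replicate 2. Such intervals cover counting error only, because PCR copies cannot be told from separate molecules here. The mean difference, hypoxia minus normoxia, was -3.19 percentage points, while the SD was 5.10 points among hypoxia libraries and 6.40 among normoxia libraries (n = 3 each). Without normoxia replicate 2 the difference was 0.333 points, and without hypoxia replicate 1 it was -0.416 points. The ratio of family to miR-21-5p counts was 1.61, 1.34 and 1.41 under hypoxia, against 1.41, 2.39 and 1.05 under normoxia.

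**Figure D1:**
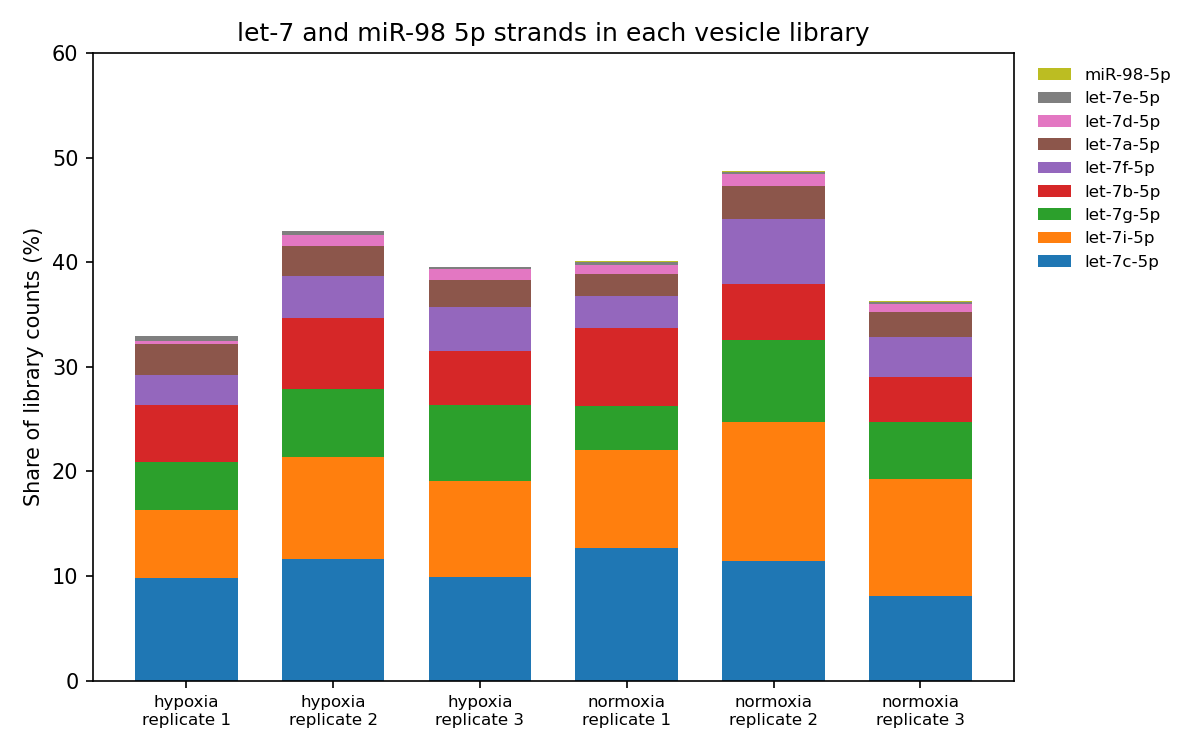
Share of all library counts (%, vertical axis) taken by each of the 9 strands, stacked, in 3 hypoxia and 3 normoxia libraries. The stacks reach 33.0, 43.0 and 39.6% under hypoxia and 40.1, 48.7 and 36.3% under normoxia, with let-7c and let-7i as the widest bands.

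Total counts were 118683 to 248542 under hypoxia and 106954 to 227149 under normoxia. Hypoxia replicate 1 stood apart: it listed 85 sequences, against 129 to 183 in the others, and 15.4% of its counts were miR-320-3p, which reached at most 2.92% in the other 5. All 11 miRNAs of the list of mesenchymal markers were listed, 9 of them in every library, with 28.4 to 37.0% of counts under hypoxia and 26.2 to 39.7% under normoxia. Most of this was miR-21-5p, which is on that list and alone took 20.4 to 32.1% under hypoxia and 20.4 to 34.6% under normoxia. The muscle list held 1.89% of counts in hypoxia replicate 1 and at most 0.487% elsewhere, with miR-133a-3p and miR-133b-3p not listed. The liver miRNA miR-122-5p took 0.464 to 0.905% of a library, and the blood cell, endothelial, epithelial and neural lists at most 0.103, 0.0964, 0.0128 and 0.425%. Of 7 blood cell markers 3 were listed and of 6 epithelial markers 2, with miR-142-3p, miR-223-3p, miR-141-3p and miR-200c-3p at 0. Their part in the let-7 values was not tested.

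let-7c-5p and let-7i-5p led the family. let-7c-5p took 29.8, 27.1 and 25.0% of the family's counts under hypoxia, against 31.5, 23.4 and 22.2% under normoxia. let-7i-5p, which in human bile duct cells targets the receptor TLR4, took 19.8, 22.7 and 23.3% under hypoxia, against 23.5, 27.2 and 31.0% under normoxia. let-7c exceeded let-7i in 4 of 6 libraries, all but normoxia replicates 2 and 3, and their ranges overlapped. Both were above every other member in each library. Together they held 48.3 to 55.0% of the family.

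A middle tier followed. let-7g-5p had 13.9, 15.1 and 18.1% of the family under hypoxia, against 10.4, 16.2 and 15.1% under normoxia. let-7b-5p, which outside cells can activate the receptor TLR7 in mouse neurons, had 16.5, 15.9 and 13.1% under hypoxia, against 18.8, 10.9 and 11.9% under normoxia. Each of these 2 was the higher one in 3 libraries, so their order is not settled. let-7f-5p, which promotes vessel sprouting in human endothelial cells, had 8.74, 9.28 and 10.7% under hypoxia, against 7.44, 12.8 and 10.4% under normoxia. let-7a-5p, the member on which most target studies were done, had 8.91, 6.75 and 6.57% under hypoxia, against 5.42, 6.48 and 6.60% under normoxia. It was below let-7f in 5 of 6 libraries, with overlapping ranges, so the best-studied member ranked only 5th or 6th here. let-7c and let-7a differ only by A19G, and let-7c was 3.35 to 4.01 times let-7a under hypoxia and 3.37 to 5.81 times under normoxia.

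The scarce members were let-7d, let-7e and miR-98, with 2.43 to 3.27% of the family in sum. let-7d-5p, known to repress HMGA2 in lung epithelium, had 0.982, 2.31 and 2.67% under hypoxia, against 2.01, 2.33 and 2.08% under normoxia. let-7e-5p had 1.44, 0.884 and 0.499% under hypoxia, against 0.860, 0.393 and 0.520% under normoxia. The 2 ranges overlapped only through hypoxia replicate 1, where let-7e exceeded let-7d. In the order of means, let-7i with let-7g, let-7a with let-7d and let-7e with miR-98 were the neighbours whose ranges over the 6 libraries lay apart. The other 5 neighbouring pairs overlapped.

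**Figure D2:**
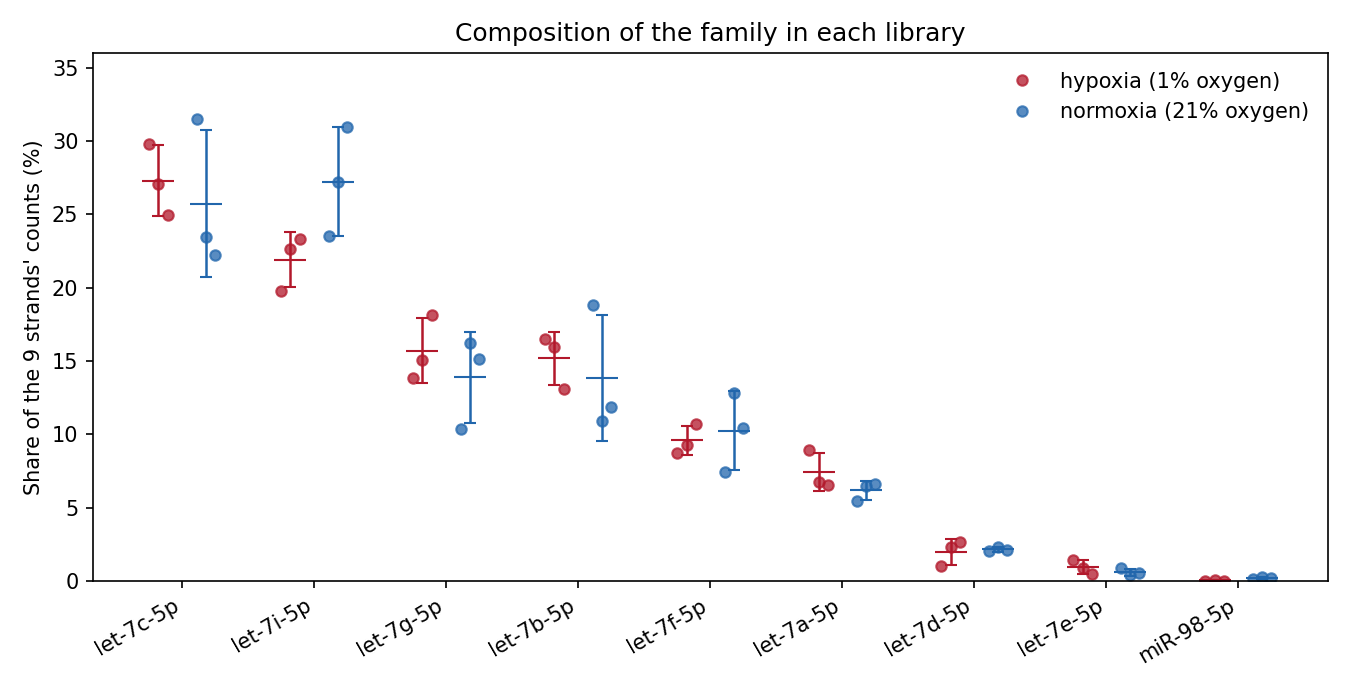
Share of the family's counts (%, vertical axis) taken by each strand in hypoxia (red, left) and normoxia (blue, right), with 1 point per library and the mean ± SD (n = 3 each) as bars. let-7i-5p is the abundant strand whose 3 hypoxia points, 19.8 to 23.3%, lie below its 3 normoxia points, 23.5 to 31.0%.

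The oxygen comparison asked whether any of these strands differ between hypoxia and normoxia vesicles. All 9 passed the filter on low counts among 107 tested sequences, 8 of them with counts in all 6 libraries. edgeR's quasi-likelihood test, fitted on the whole table with Benjamini-Hochberg adjustment, called 0 of the 9 members, beside 0% of all 107 tested sequences, and each member's adjusted p was 0.998. At an unadjusted p under 0.05 it gave 0 members, beside 0.935% of all tested. DESeq2 and limma-voom also called 0 members. At an unadjusted p under 0.05 limma-voom gave 1 member, miR-98-5p, beside 3.74% of all tested. That strand was unlisted in hypoxia replicates 1 and 3 and passed the filter through its normoxia libraries, so this is no support for a difference. Fitted log2 fold changes, hypoxia over normoxia, lay below 0 for 7 of 9 members, beside 58.9% of all tested, and the median was -0.14 both over the members and over all tested. The standard error had a median of 0.342 over the 8 abundant members, against 1.44 over all tested sequences. Over the 39 most abundant tested sequences, members included, it was 0.415, so this precision is close to that of abundant miRNAs in general. For let-7d-5p and let-7e-5p it was 0.48.

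rno-let-7i-5p had the lowest fold change of the 8 abundant members. Scaled by TMM factors (edgeR's correction of library size for composition) and given as CPM (counts brought to a common library size) it had 52588, 105752 and 93041 CPM under hypoxia, against 98304, 134032 and 124686 CPM under normoxia. Hypoxia replicate 1 was far below the rest, and hypoxia replicate 2 lay above normoxia replicate 1. The TMM factor of hypoxia replicate 1, 1.25 against at most 0.997 in the others, lowers all its CPM values. The log2 fold change was -0.51 (SE 0.33, 95% interval -1.22 to 0.21), the 4th smallest p of the 107 and not significant in edgeR after adjustment. With library totals in place of TMM factors it was -0.41 (SE 0.26), and without hypoxia replicate 1 it was -0.03 (SE 0.27).

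let-7f-5p and let-7d-5p were next on the lower side. rno-let-7f-5p had 23269, 43324 and 42636 CPM under hypoxia, against 31089, 63271 and 42090 CPM under normoxia, a log2 fold change of -0.32 (SE 0.35, interval -1.09 to 0.44). rno-let-7d-5p had 2613, 10798 and 10641 CPM under hypoxia, against 8379, 11474 and 8394 CPM under normoxia, a log2 fold change of -0.23 (SE 0.48, interval -1.27 to 0.80). In both, hypoxia replicate 1 was the lowest library and the groups overlapped. Without it the values were 0.15 for let-7f-5p and 0.41 for let-7d-5p.

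The remaining abundant members were closer to 0 or above it. rno-let-7c-5p had 79362, 126291 and 99622 CPM under hypoxia, against 131556, 115649 and 89541 CPM under normoxia, a log2 fold change of -0.14 (SE 0.31). Normoxia replicate 1 was the highest library and hypoxia replicate 1 the lowest, and the groups overlapped. For let-7b-5p the log2 fold change was -0.08 (interval -0.78 to 0.62), for let-7g-5p -0.03 (interval -0.79 to 0.72) and for let-7a-5p 0.00 (interval -0.64 to 0.65). A difference of about 1.5-fold in either direction lies inside each of these intervals. Without hypoxia replicate 1 the values were 0.24 for let-7c-5p, 0.31 for let-7b-5p, 0.44 for let-7g-5p and 0.33 for let-7a-5p, and the median of all tested sequences was 0.15.

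rno-let-7e-5p was the member farthest above 0. It had 565, 555 and 491 raw counts under hypoxia, against 369, 394 and 428 under normoxia, a 1.53-fold range over the libraries while their totals spanned a 2.32-fold range. As TMM-scaled CPM it had 3845, 4127 and 1991 under hypoxia, against 3595, 1940 and 2094 under normoxia, and these overlapped. The log2 fold change was 0.39 (SE 0.48, interval -0.65 to 1.42), not significant in edgeR with an adjusted p of 0.998.

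rno-miR-98-5p, the scarcest member, had 0, 46 and 0 counts under hypoxia, against 56, 240 and 167 under normoxia. As TMM-scaled CPM that was 0, 342 and 0 under hypoxia, against 546, 1182 and 817 under normoxia, and the groups did not overlap. It was the 1 member of 9 whose groups lay apart in CPM, beside 7.48% of all 107 tested, all of them with hypoxia lower. It was also the 1 member apart in plain share of the library, where 4.67% of all tested were apart with hypoxia lower and 7.48% in either direction. The strand passed the filter on low counts through its normoxia libraries, and hypoxia replicate 1 listed only 85 sequences. Groups that lie apart with hypoxia lower, on any scale, are therefore no support for a difference in this strand. The table has no count of 1 and may list only counts above a minimum, so a 0 here is an unlisted value. The log2 fold change was -2.90 (SE 1.97, interval -7.15 to 1.35), with an adjusted p of 0.998 in edgeR. All hypoxia counts of the strand were in replicate 2. With that library left out the hypoxia side had no listed count, so the fold is undefined, and the adjusted p in edgeR was 0.0723. In the other alternatives its adjusted p was 0.347 or more. let-7f, whose second precursor neighbours miR-98, was 127 times miR-98 in hypoxia replicate 2, against 57.0, 53.5 and 51.5 times in the normoxia libraries.

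To separate composition from the level of the family as a whole, the fit was repeated with the family's summed count as library size. Of the 9 members 4 then lay below 0, beside 48.6% of all tested, and edgeR again called 0. Because the members are their own denominator here, a lower share of an abundant member raises others. Their split around 0 is thus partly set by the scale and not like that of the non-members. let-7i-5p had -0.31 (SE 0.22), let-7f-5p -0.10 (SE 0.27), let-7d-5p -0.11 (SE 0.44) and miR-98-5p -2.95 (SE 1.95). The other 5 lay above 0: let-7c-5p at 0.09 (SE 0.22), let-7b-5p at 0.13 (SE 0.26), let-7g-5p at 0.18 (SE 0.25), let-7a-5p at 0.26 (SE 0.28) and let-7e-5p at 0.67 (SE 0.56). For let-7i-5p and miR-98-5p the hypoxia and normoxia shares of the family did not overlap. That is 2 of 9 members, beside 5.61% of all 107 tested on the same scale, all of them with hypoxia lower. miR-98-5p passed the filter through its normoxia libraries, so its place in this count is no support for a difference. For let-7i-5p the gap was narrow, between 23.3% in hypoxia replicate 3 (exact interval 23.1 to 23.6%) and 23.5% in normoxia replicate 1 (23.1 to 23.9%). The mean share was 21.9 ± 1.90% in hypoxia vesicles and 27.2 ± 3.71% in normoxia vesicles (SD, n = 3 each).

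**Figure D3:**
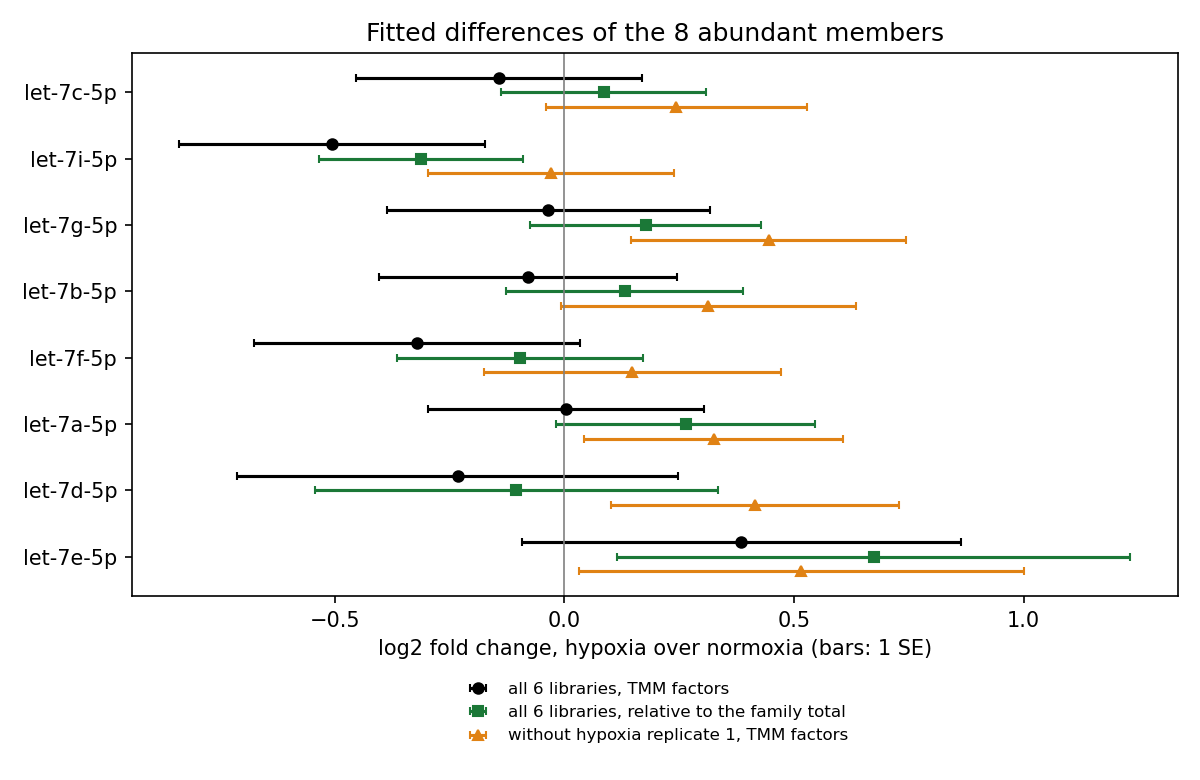
Log2 fold change, hypoxia over normoxia (horizontal axis), of the 8 abundant strands with 1 SE as bars, from all libraries with TMM factors (black circles), relative to the family total (green squares) and without hypoxia replicate 1 (orange triangles). let-7i-5p is below 0 in all 3 fits at -0.51, -0.31 and -0.03, and let-7e-5p is above 0 in all 3.

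The composition of the family moved with the total count of the library, a pattern noticed after the values were seen and given as a description. let-7f, let-7g and let-7i, grouped after the values were seen, summed to 41.3 to 47.0% of the family in the 3 libraries with under 150000 counts. In the 3 libraries with over 200000 counts they summed to 52.2 to 56.5%. let-7b, let-7c and let-7e summed to 43.9 to 51.1% in the smaller libraries and to 34.6 to 38.6% in the larger ones. The ranges of let-7a (5.42 to 8.91% and 6.48 to 6.60%) and let-7d (0.982 to 2.31% and 2.08 to 2.67%) overlapped between smaller and larger libraries. let-7e-5p had 369 to 565 counts in the smaller libraries and 394 to 491 in the larger ones, while let-7f-5p had 3191 to 5826 and 8605 to 12848. Each set of totals holds libraries of both groups. Among the smaller libraries let-7i took 19.8 and 22.7% of the family under hypoxia, against 23.5% under normoxia. Among the larger ones it took 23.3% under hypoxia, against 27.2 and 31.0% under normoxia. The difference, hypoxia minus normoxia, was -2.32 points within the smaller and -5.73 points within the larger libraries, against -5.30 over all 6. The smaller libraries hold normoxia replicate 1 as the only normoxia library, and the larger ones hypoxia replicate 3 as the only hypoxia library. These within-set differences therefore have no spread and are only a description, and let-7i was among the strands grouped from the same values. With the log2 total count as a covariate, the log2 fold change of let-7i-5p was -0.48 (SE 0.34, adjusted p 0.999 in edgeR). The part of the total count in the oxygen comparison was not tested further.

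**Figure D4:**
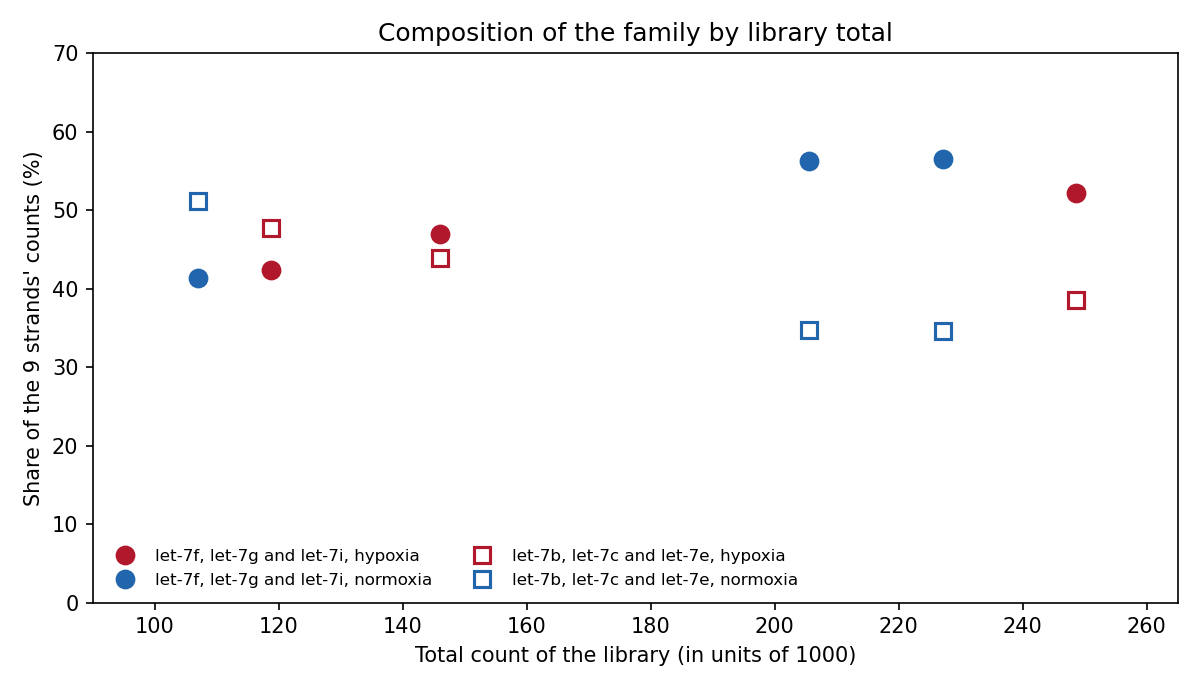
Share of the family's counts (%, vertical axis) held by let-7f, let-7g and let-7i (filled circles) and by let-7b, let-7c and let-7e (open squares) against the library's total count (horizontal axis, in units of 1000), with hypoxia in red and normoxia in blue. The filled circles are at 41.3 to 47.0% below 150000 counts and at 52.2 to 56.5% above 200000.

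As a whole, the family composition did not sort the libraries by oxygen. The share of family counts that would have to change member to make 2 libraries equal was 5.52 to 11.5% between hypoxia libraries (median 6.05%, 3 pairs) and 4.97 to 16.5% between normoxia libraries (median 16.4%, 3 pairs). Across the groups it was 6.22 to 15.4% (median 9.37%, 9 pairs). The closest pair was normoxia replicates 2 and 3, and the farthest was normoxia replicates 1 and 3.

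The 3p strands were scarce beside the 5p strands. Of 12 names on the list of let-7 and miR-98 3p strands, 5 were listed, as 4 distinct sequences, since let-7a-1-3p and let-7c-2-3p are the same. Together the 3p strands made up 0.491, 0.281 and 0.122% of the counts of both arms under hypoxia, against 0.281, 0.311 and 0.191% under normoxia. let-7d-3p held 986 of the 1081 3p counts (91.2%) and was the 1 such strand listed in all 6 libraries. let-7e-3p had 52 counts in hypoxia replicate 1, 8.43% of both let-7e arms there (95% exact interval 6.36 to 10.9%). It had 7 counts in normoxia replicate 3, 1.61% of both arms (0.649 to 3.29%), and none listed in the other 4 libraries. Both arms of let-7d are shown in capitals in its RefSeq hairpin (GRCr8), the 5p arm first, because let-7d is the member whose 3p strand was listed in every library:
Mirlet7d: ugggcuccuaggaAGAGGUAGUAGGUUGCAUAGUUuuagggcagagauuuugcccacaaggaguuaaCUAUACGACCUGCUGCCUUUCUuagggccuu

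Of the counts of both let-7d arms, let-7d-3p took 26.9% in hypoxia replicate 1 (95% exact interval 23.1 to 30.9%), 10.5% in replicate 2 (9.08 to 12.1%) and 3.53% in replicate 3 (2.87 to 4.29%). Under normoxia it took 12.0% (10.0 to 14.2%), 11.8% (10.6 to 13.1%) and 7.99% (6.80 to 9.31%). The hypoxia libraries held both the highest and the lowest value, so the groups overlapped, with means of 13.6 ± 12.0% in hypoxia vesicles and 10.6 ± 2.25% in normoxia vesicles (SD, n = 3 each). The high share in hypoxia replicate 1 goes with 384 counts of let-7d-5p, the fewest of any library, while its 141 counts of let-7d-3p lie within the range of the others. let-7d-3p was the only 3p strand that passed the filter, at -0.38 on the log2 scale (SE 0.72, adjusted p 0.998 in edgeR).

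**Figure D5:**
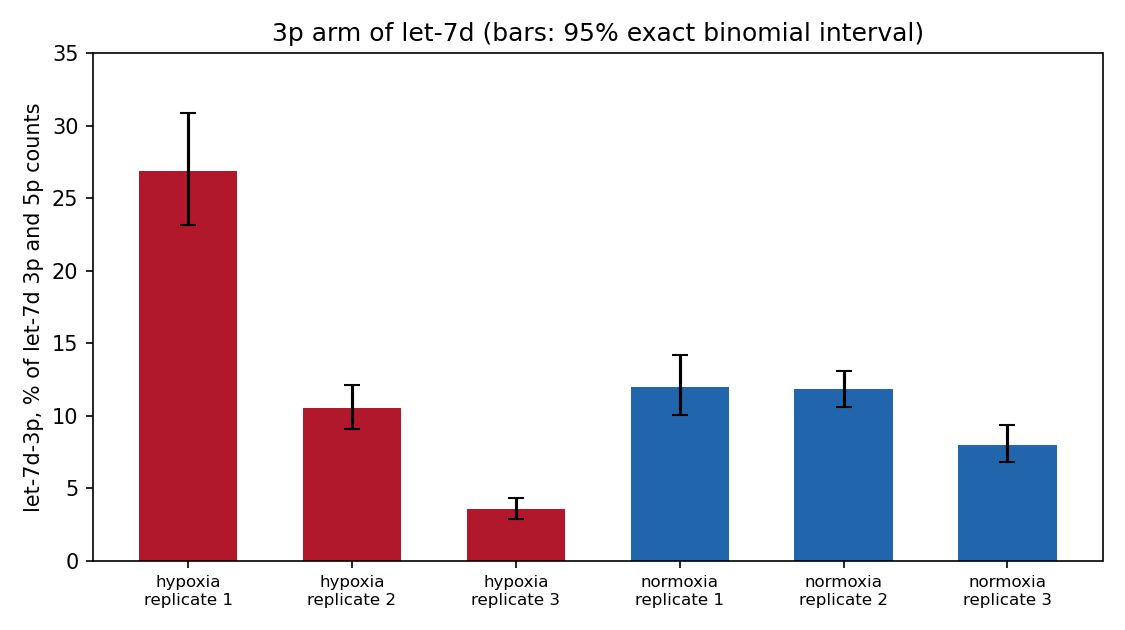
let-7d-3p as a share of the counts of both let-7d arms (%, vertical axis) in 3 hypoxia (red) and 3 normoxia (blue) libraries, with 95% exact binomial intervals. Hypoxia replicate 1 is highest at 26.9% and hypoxia replicate 3 lowest at 3.53%, with normoxia between 7.99 and 12.0%.

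The ratio of let-7 strands to miRNAs encoded beside their precursors varied between libraries. let-7e-5p was 0.307, 0.530 and 0.149 times miR-99b-5p under hypoxia, against 0.284, 0.105 and 0.174 times under normoxia. let-7c-5p was 4.14, 14.0 and 3.26 times miR-99a-5p under hypoxia, against 10.0, 6.39 and 4.57 times under normoxia. let-7c and let-7a each have a second locus, so only the let-7e ratio refers to 1 locus on the let-7 side. let-7a-5p was 0.706 to 1.04 times miR-100-5p under hypoxia and 0.522 to 1.22 times under normoxia. The partner list also held miR-125b-5p, a relative of miR-125a. No miR-125b gene lay within the 10000-base window around a let-7 gene, and longer distances were not searched. Of the 5 partners on that list, all tested, 1 lay above 0 and 4 below, and edgeR called 0. Their log2 fold changes were 0.21 (SE 0.42) for miR-99a-5p, -0.36 (SE 0.36) for miR-99b-5p and -0.24 (SE 0.32) for miR-100-5p. They were -0.19 (SE 0.40) for miR-125b-5p and -0.15 (SE 1.78) for miR-125a-5p.

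Among the 31 other sequences with a mean of at least 1000 CPM, the profile most like that of the summed family was that of miR-26a-5p. Likeness was the root mean square difference between log2 CPM values centred over the 6 libraries. It was 0.209 for miR-26a-5p, 0.332 for miR-100-5p, 0.345 for miR-27b-3p, 0.352 for miR-152-3p and 0.358 for miR-199a-3p. miR-21-5p was next at 0.359, so the values after miR-26a-5p lay close together. On this TMM-scaled log2 scale the family's deviation from its own mean was -0.59 in hypoxia replicate 1 and 0.30 in normoxia replicate 2. With library totals alone it was -0.27 in hypoxia replicate 1 and 0.29 in normoxia replicate 2.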

How the data were processed

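The authors deposited raw tag counts per mature miRNA and precursor, per the file headers, plus a normalized version of that table, treated here as a score because the scaling method is not stated. The submitters' processing notes list Novoalign 3.02.12, cutadapt 1.9.3 and build rn6, without saying what each did. Blank cells were taken as 0. The 353 rows were merged to 311 distinct mature sequences. Total counts of 106954 to 248542 per library limit precision for scarce strands such as miR-98-5p.

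The count test was edgeR's (version 4.0.16, R 4.3.3). Its filter for low counts, filterByExpr with a minimum count of 10 and a minimum total of 15, kept 107 sequences. TMM factors (0.904 to 1.25), robust quasi-likelihood fits and Benjamini-Hochberg adjustment over all 107 at a threshold of 0.05 were used, and SEs are the log2 fold change divided by the root of F. Scripts were tested on simulated counts with far less spread between libraries than these data, where edgeR's common coefficient of variation was 1.07. That test therefore does not show which differences could be called here. Alternatives used DESeq2 1.42.0, limma 3.58.1 (log2 of the normalized value plus 1), other scalings, no filter, a replicate block and each library left out. Members and lists were chosen with earlier results of these data known. By rule, the text names the 9 members, the 3p and cluster partner lists, and the 5 non-members most like the summed family. Hairpins and gene neighbours come from RefSeq (GRCr8), which differs from rn6, so no coordinates are given.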

Additional observations from a re-analysis of the deposited data

How the results depend on the processing

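No member was called under any of the 16 alternatives, and the count of called sequences was 0 higher and 0 lower in each, except that limma on the authors' normalized table gave 1 lower, an unannotated sequence with an adjusted p of 0.0138. Over each library left out in turn the counts stayed at 0 higher and 0 lower. let-7e-5p (0.29 to 0.81), let-7i-5p (-0.58 to -0.03) and miR-98-5p (-6.70 to -2.02) kept their sign in every alternative that gave a value, and the other 6 members did not. The signs of those 6 changed as follows, none past the threshold. Without hypoxia replicate 1, let-7b-5p had 0.31, let-7c-5p 0.24, let-7d-5p 0.41, let-7f-5p 0.15 and let-7g-5p 0.44. With each library left out, let-7a-5p had -0.03 to 0.33, let-7b-5p -0.20 to 0.31, let-7c-5p -0.20 to 0.24, let-7d-5p -0.37 to 0.41, let-7f-5p -0.46 to 0.15 and let-7g-5p -0.17 to 0.44. With library totals only, the value was 0.031 for let-7b-5p and 0.060 for let-7g-5p. Relative to the family total, let-7b-5p had 0.13, let-7c-5p 0.085 and let-7g-5p 0.18. On the authors' normalized table, let-7b-5p had 0.089, let-7c-5p 0.021 and let-7g-5p 0.12. Without normoxia replicate 1, let-7a-5p had -0.030. limma-voom gave let-7a-5p -0.0060, and with the total count as covariate, chosen after seeing the data, let-7g-5p had 0.012. The cause was not tested.

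The labels do not say whether libraries with the same replicate number are paired. Deviations of same-numbered libraries correlated at 0.228, 0.031 and 0.124 over 107 sequences, and those of different-numbered libraries at -0.299 to 0.201. These overlapping values do not settle it. With the replicate number as a block, 0 sequences were called, let-7i-5p had -0.56 and miR-98-5p -6.70, each with an adjusted p of 0.990 in edgeR.

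The family's mean share of 40.1% was 58.3% of counts without miR-21-5p and miR-320-3p, and 48.0% with every precursor row counted. Counting every row doubles strands with 2 precursors. The mean shares of the family then were 9.47% for let-7a, 37.0% for let-7c, 13.9% for let-7f, 10.1% for let-7b, 1.45% for let-7d, 10.3% for let-7g and 17.2% for let-7i. The share difference of let-7i-5p was -2.32 points within the libraries under 150000 counts, where normoxia replicate 1 was the only normoxia library. With each library left out it was -7.15 to -3.44 points.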
